A study of Homo sapiens with 12 samples.

Results

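Cells carrying ErbB2 alone were set directly against cells carrying p130Cas alone, on 6 of the 12 arrays of the series. The samples were chosen by their titles, 3 called ErbB2 (array names M+) and 3 called Cas (array names C-), and the arrays of cells with both changes and of the control called Ctr MCF10A.B2 stayed out of the fit. All groups are modified MCF10A cells, a line of human breast epithelium that forms no tumours and has a basal-like character. The genotype field reads ErbB2 for one group and Cas for the other. The labels do not say how either protein was raised or activated, whether a group is 1 clone or a pool, or what the signs in the array names mark. They also do not say whether the ErbB2 and Cas cells share the B2 modification named in the control's title, and no treatment or time is given for any group. The series title names an invasive signature that depends on p130Cas and ErbB2, and this comparison asks how the transcripts that go with each single change differ. Total RNA was labelled and hybridized to Illumina bead arrays, on which each probe reads as a mean bead brightness with a detection p-value.

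ErbB2 belongs with the EGF receptor to a family of receptor tyrosine kinases, binds no ligand of its own and signals as a dimer, through RAS and the ERK kinases and through PI3 kinase and AKT. p130Cas, the product of BCAR1, is an adaptor of focal adhesions: SRC and FAK phosphorylate it when integrins engage the matrix, and it then recruits CRK and DOCK1 to activate the small GTPase RAC1. Neither is a transcription factor. In mammary epithelium ErbB2 is known as an oncogene that drives growth and survival, and p130Cas for its part in adhesion, migration and resistance to anti-oestrogens.

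Of 47224 probes, 12911 were detected (detection p under 0.05) on all 3 arrays of at least 1 of both groups. The brightest of these per gene stood for it, which left 8122 named genes and 2637 unnamed probes, 10759 items in all. Median raw signal was 477 to 577 on the ErbB2 arrays and 510 to 614 on the Cas arrays, and 14099 to 15084 and 13897 to 15214 probes were detected. Pearson's r, taken over items and so not over independent replicates, was 0.986 to 0.990 among ErbB2 arrays, 0.988 to 0.989 among Cas arrays and 0.975 to 0.984 between them. All 9 of the basal-like MCF10A markers that have probes here were detected, KRT5, KRT14, ITGA6, ITGB4, CDH1, CDH3, EGFR, EPCAM and LAMB3, and their summed normalized signal was 91863 to 108561 in ErbB2 and 81417 to 93135 in Cas cells. PTPRC, CD3E and LYZ (leukocyte), COL3A1, PDGFRA, PDGFRB and THY1 (fibroblast) and VWF, CDH5 and KDR (endothelial) were detected on 0 of the 6 arrays. From the same lists CD14 and CD68 (leukocyte), COL1A1 and DCN (fibroblast) and PECAM1 (endothelial) were detected on all 6. Whether the replicates of a group are separate cultures is not stated, and p-values then reflect only how these samples vary, which may be technical. Fewer cells of a kind and less RNA per cell cannot be told apart in such bulk RNA.

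TMEM158, SCG5, NT5E, SERPINE2 and ASNS were among the genes higher with ErbB2, and FABP4, KRT13, CALML3 and BBOX1 among those higher with Cas. Differences are given as ErbB2 minus Cas on the log2 scale, ± limma's standard error (n = 3 arrays in each group), and a gene was called at a Benjamini-Hochberg adjusted p under 0.05 over all items. Of the 10759 items 429 (3.99%) were called, 266 higher in ErbB2 (2.47%) and 163 lower (1.52%), and 1897 had an unadjusted p under 0.05. The counts of list members called, or with an unadjusted p under 0.05, given below, are to be read beside these numbers for all items. The lists were written with earlier results of these data known, so such counts are a description and not a test. All 429 had groups that did not overlap, against 2451 (22.8%) of all items. The called differences had a median of 0.83 upward and -0.72 downward, against -0.01 over all items, and 86 higher and 27 lower calls were at least 1 in size. The median SD between arrays of a group was 0.16 in ErbB2 and 0.15 in Cas cells, and the smallest called difference was 0.47. Of the higher calls 87 passed the detection filter through the ErbB2 arrays only, and of the lower calls 28 through the Cas arrays only. With 1 array left out the counts fell to 296, 206 and 216 without ErbB2 replicates 1, 2 and 3 and to 219, 259 and 251 without Cas replicates 1, 2 and 3. Scaling each array to its median in place of quantile normalization gave 799 higher and 98 lower calls (89.1% higher, against 62.0%), and moved the median of all items to 0.17. For a single gene an exact permutation test over these 6 arrays cannot give a p below 0.1.

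**Figure D1:**
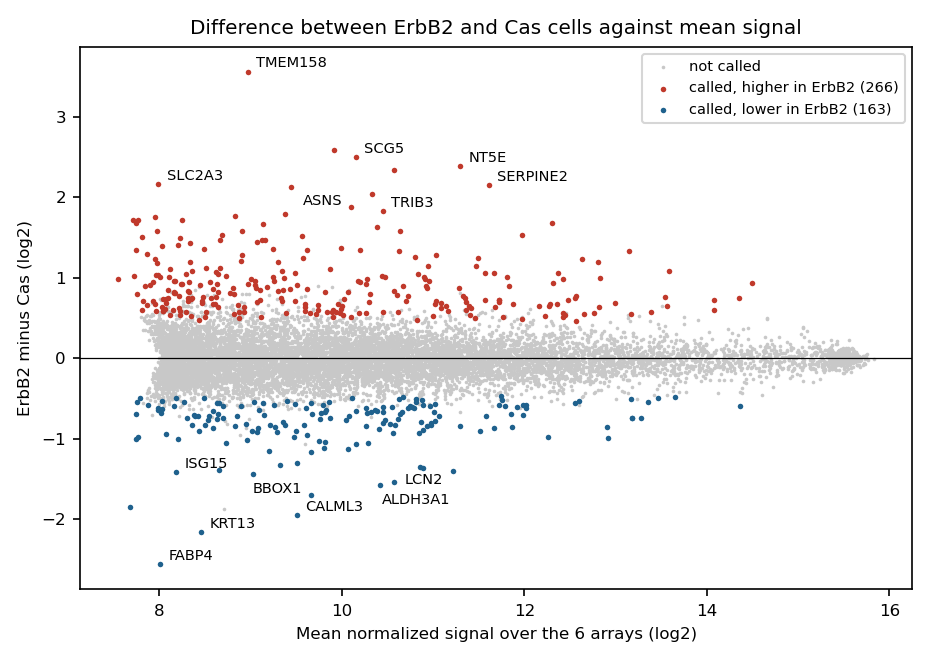
Difference between ErbB2 and Cas cells (ErbB2 minus Cas, log2) against the mean normalized signal of the 6 arrays (log2), 1 point per item. Red points are the 266 items called higher in ErbB2 cells and blue points the 163 called lower, from TMEM158 at 3.56 to FABP4 at -2.56, and grey points did not pass. Both ends are fitted values against arrays on which the gene was not detected.

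The genes of the introduced proteins gave no check of the labels, since it is not known whether the probes read an introduced sequence. BCAR1, which encodes p130Cas (ILMN_1672596), read 9.73, 9.27 and 8.74 on the ErbB2 arrays and 9.28, 9.51 and 9.04 on the Cas arrays. Its groups overlapped, with a difference of -0.03 ± 0.23 (limma, adjusted p = 0.962). ERBB2 (ILMN_2352131) read 9.94, 9.70 and 9.91 in ErbB2 and 10.30, 10.17 and 9.79 in Cas cells, a difference of -0.24 ± 0.15 that did not pass (limma, adjusted p = 0.477). The other ERBB2 probes and the NGFR probe, for the p75 neurotrophin receptor, were detected on 0 of the 6 arrays. Among 10 measured ErbB receptors, ligands and adaptors HBEGF alone passed. In limma 5 of the 10 had an unadjusted p under 0.05, beside 1897 of all 10759 items. All 5 were higher, and the median of the 10 was 0.32. With median scaling 4 were called higher, with the authors' processed values 3 and with no background correction 2. Those settings called 799, 370 and 349 of all 10759 items higher. Median scaling also moved the median of all items to 0.17. Among 16 measured partners of p130Cas, PTK2 (FAK), SRC, PXN and RAC1 included, 0 passed and 4 had an unadjusted p under 0.05 in limma. The partner with the largest difference upward was BCAR3, an exchange-factor-like binder of p130Cas, at 0.47 ± 0.15 (adjusted p = 0.113), and downward RAPGEF1, at -0.45 ± 0.18 (adjusted p = 0.227). With median scaling 3 partners were called higher, and BCAR3 was called there and with a trended, robust variance (adjusted p down to 0.0147 over the alternatives). Under median scaling the median of the 16 partners was 0.07 relative to all items.

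TMEM158, SCG5, NT5E and SERPINE2 were among the largest fitted differences toward ErbB2. TMEM158 (ILMN_1792455), a membrane protein known for its induction by RAS, read 11.21, 10.36 and 10.68 on the ErbB2 arrays and 7.08, 7.29 and 7.20 on the Cas arrays, where it was detected on none. Against the lowest detected signal of the Cas arrays it was at least 6.86-fold higher (adjusted p = 6.69e-05). SCG5 (ILMN_2065773), the 7B2 chaperone of a prohormone convertase, read 11.44, 11.47 and 11.29 against 8.59, 9.07 and 9.05, a difference of 2.50 ± 0.15 (adjusted p = 6.69e-05). The groups of both genes lay far apart. NT5E (ILMN_1697220) encodes CD73, the surface enzyme that turns AMP into adenosine, and read 12.73, 12.28 and 12.46 against 9.94, 10.30 and 10.07, a difference of 2.39 ± 0.15 (adjusted p = 6.94e-05). SERPINE2 (ILMN_1655595), a secreted inhibitor of thrombin and urokinase, read 12.77, 12.49 and 12.81 against 10.66, 10.40 and 10.55, a difference of 2.15 ± 0.13 (adjusted p = 6.69e-05). SCG5, NT5E and SERPINE2 were detected on all 6 arrays, unlike TMEM158.

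MALL, a membrane-raft protein, was 2.34 ± 0.28 higher (adjusted p = 0.00197), with Cas replicate 3 at 8.64 below the other Cas arrays at 9.65 and 9.91. INSC, an adaptor that orients the mitotic spindle, was 2.13 ± 0.17 higher (adjusted p = 0.000218). PITPNC1, a phosphatidylinositol transfer protein detected on 1 of the 3 Cas arrays, was 1.77 ± 0.13 higher (adjusted p = 0.000165). AOX1, the molybdenum enzyme aldehyde oxidase, was detected on the ErbB2 but not the Cas arrays and was at least 1.52-fold higher (adjusted p = 0.00217). VSTM2L was at least 2.20-fold higher on the same ground (adjusted p = 0.000923). AOX1 and VSTM2L were also detected on all 3 control and all 3 Cas/ErbB2 arrays. The control arrays detected more probes of every kind (19076 to 19416, against 13897 to 15214 on the Cas arrays). Detection there is therefore not comparable with detection on the Cas arrays. IZUMO4 and the antisense transcript SLC67A1-AS, both undetected on the Cas arrays, were at least 1.53-fold and 1.82-fold higher (adjusted p = 0.000218 and 0.000923). The plot of 30 genes by array gives the values of the 15 largest fitted differences in each direction, which were chosen among genes whose groups do not overlap. The place in that order of a gene undetected in 1 group is uncertain, since only a bound is known for it.

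**Figure D2:**
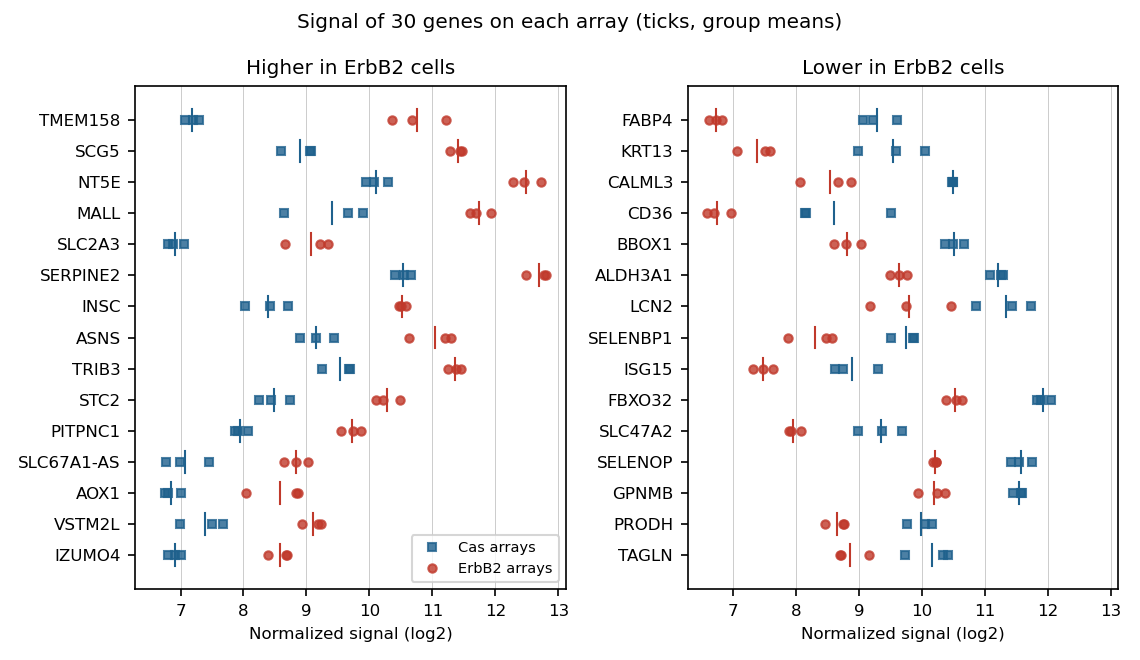
Normalized signal (log2, horizontal axis) on each array for the 15 largest called differences in each direction, red circles for the 3 ErbB2 arrays, blue squares for the 3 Cas arrays and ticks for group means. The genes were chosen among those whose groups do not overlap, and on the Cas arrays the values of TMEM158 (7.08, 7.29 and 7.20) are not above background.

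Transcripts known as outputs of ERK signalling, which report on the pathway below receptor kinases, were called higher in ErbB2 cells in part. Of 23 measured members 11 were called higher and 0 lower, with a median difference of 0.53 over all 23 (against -0.01 over all items, and 2.47% of items called higher), and 21 of the 23 differences were above 0. TMEM158, given above, was the largest. The list was written with earlier results of these data known, so its counts and median are a description and not a test. SPRY4, a Sprouty inhibitor that acts as feedback on the RAS to ERK cascade, read 11.63, 11.16 and 11.51 in ErbB2 and 9.91, 10.07 and 9.55 in Cas cells, a difference of 1.59 ± 0.17 (adjusted p = 0.00111). PHLDA1, an early growth factor response gene, was 1.25 ± 0.13 higher (adjusted p = 0.000824). HBEGF, an EGF receptor ligand, read 9.03, 9.06 and 9.11 against 7.94, 8.05 and 7.85, with detection on 1 of the 3 Cas arrays, and was 1.12 ± 0.11 higher (adjusted p = 0.000824). The ETS factor ETV5 was 0.91 ± 0.13 higher (adjusted p = 0.00488), and missed with 9 arrays in the fit, the control left out (0.0578). The other 6 calls were FOS (0.87), its early-response neighbour EGR1 (0.67), the ETS factor ETV4 (0.67), the ERK phosphatases DUSP5 (0.65) and DUSP6 (0.55) and the feedback inhibitor SPRED1 (0.53), with adjusted p from 0.00531 to 0.0486. Members that did not pass included SPRY2 at 0.51, FOSL1 at 0.45, CCND1 at 0.31, MYC at 0.17, DUSP1 at -0.19 and JUNB at -0.19. Between 6 and 8 of the members were called with 1 array left out, 8 without ErbB2 replicate 1, 7 without 2 and 6 without 3, and 7, 8 and 6 without Cas replicates 1, 2 and 3.

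Asparagine synthesis and the kinase-like stress protein TRIB3 were higher in ErbB2 cells, whereas most of the genes that respond with them to amino acid shortage did not pass. ATF4 is a transcription factor whose translation rises under amino acid shortage or endoplasmic reticulum stress, and with C/EBP factors it binds a composite element in genes such as ASNS. Of 14 measured members of that response 3 were called higher (2.47% over all items) and 0 lower, with a median of 0.15. ASNS, asparagine synthetase, read 10.64, 11.29 and 11.20 on the ErbB2 arrays and 9.15, 8.89 and 9.43 on the Cas arrays, a difference of 1.89 ± 0.20 (adjusted p = 0.000933). TRIB3, a pseudokinase that inhibits AKT and ATF4, read 11.24, 11.38 and 11.46 against 9.69, 9.68 and 9.24, a difference of 1.82 ± 0.15 (adjusted p = 0.000251). STC2, a secreted glycoprotein, read 10.11, 10.22 and 10.49 against 8.74, 8.25 and 8.44, a difference of 1.80 ± 0.16 (adjusted p = 0.000419). ATF4 itself was at 0.34 (adjusted p = 0.136), ATF3 at -0.17 and DDIT4 at 0.07, and DDIT3 and CHAC1 were not kept.

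The ASNS promoter is shown because it carries the composite C/EBP-ATF element for which the gene is known. The 250 bases before its start are at chr7:97872409-97872658 (GRCh38.p14, minus strand, RefSeq), printed 5′ to 3′ on the gene's strand with the element, which starts 68 bases before the start site, in capitals.
ASNS: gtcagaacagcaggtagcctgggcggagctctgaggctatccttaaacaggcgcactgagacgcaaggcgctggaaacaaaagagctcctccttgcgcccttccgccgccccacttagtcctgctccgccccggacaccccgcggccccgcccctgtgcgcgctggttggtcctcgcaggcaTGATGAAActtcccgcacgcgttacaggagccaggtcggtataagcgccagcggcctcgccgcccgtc
The motif searched was TGATGNAA on both strands, in the 300 bases from 250 before to 50 after the first listed start of each gene. It was found in 117 of 6742 tested genes (1.74%) and in 1003 of 27305 genes in all (3.67%). Among 44 members of 4 lists on amino acid supply it was found in 2 of the 7 that were called higher (ASNS and MTHFD1L), in 1 of 3 called lower (SLC3A2) and in 10 of 34 that did not pass. Members without a match included TRIB3, STC2 and PHGDH. The lists hold genes known as targets of ATF4, such as ASNS, so a share above that of all genes is no test. A match is a description of the letters only.

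The enzymes of serine, one-carbon and asparagine supply went partly with ASNS. Of 13 measured, 4 were called higher and 1 lower (2.47% and 1.52% over all items), with a median of 0.43. PHGDH, which commits glycolytic carbon to serine, read 11.40, 11.79 and 11.37 in ErbB2 and 10.13, 10.65 and 10.34 in Cas cells, a difference of 1.15 ± 0.17 (adjusted p = 0.00546). PCK2, the mitochondrial PEP carboxykinase, is in no list and was named after its values were seen. It read 9.97, 10.42 and 10.48 against 8.64, 9.26 and 8.92, a difference of 1.35 ± 0.19 (adjusted p = 0.00425). The mitochondrial folate enzymes MTHFD2 (0.71 ± 0.13, adjusted p = 0.0139) and MTHFD1L (0.57 ± 0.11, adjusted p = 0.022) passed with smaller differences. MTHFD2 missed the threshold without ErbB2 replicate 2 (0.0689) or 3 (0.0549) or Cas replicate 2 (0.0501), and MTHFD1L without any array but ErbB2 replicate 1 (adjusted p up to 0.0855). PSAT1 was at 0.19 and SHMT2 at 0.10, and neither passed. ASS1, argininosuccinate synthase, was lower at -0.49 ± 0.12 (adjusted p = 0.0496), and missed without each of the 6 arrays (0.0983 to 0.152). Another kept probe of ASS1 was not called.

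The transporters did not go with the enzymes. SLC7A5, the light chain of the large neutral amino acid transporter LAT1, read 12.58, 12.39 and 12.46 on the ErbB2 arrays and 13.24, 13.49 and 13.26 on the Cas arrays, a difference of -0.85 ± 0.12 (adjusted p = 0.00494). Its heavy chain SLC3A2 was lower by -0.59 ± 0.12 (adjusted p = 0.0312), a call that was lost without each of the 6 arrays (0.0606 to 0.106). Another kept probe of SLC3A2 was not called. SLC7A5 and SLC3A2 were 2 of 8 measured transporters, and the other 6 did not pass. Of 18 measured cytosolic aminoacyl-tRNA synthetases, which charge tRNAs, GARS1 alone was called, 0.75 ± 0.13 higher (adjusted p = 0.0157), and 17 did not pass. GARS1 missed without ErbB2 replicate 2 (0.0762) or 3 (0.0606) or Cas replicate 1 (0.0518) or 3 (0.0572). Of 15 genes of the unfolded protein response and its chaperones 3 were called higher, HSPA5 (BiP, 0.81 ± 0.17, adjusted p = 0.0308), XBP1 (0.72 ± 0.16, adjusted p = 0.0386) and PDIA6 (0.59 ± 0.12, adjusted p = 0.029). With 1 array left out 1 remained without ErbB2 replicate 2 or Cas replicate 2 and 0 without any of the other arrays, and the median of the 15 was 0.07.

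Glycolysis and hypoxia-response genes, which HIF1 drives when oxygen is short, were called in part. Of 24 measured 8 were called higher in ErbB2 cells (2.47% over all items) and 0 lower, 16 did not pass, and the median was 0.27. SLC2A3, the high-affinity glucose transporter GLUT3, read 8.66, 9.22 and 9.34 on the ErbB2 arrays and 6.88, 7.05 and 6.80 on the Cas arrays, on which it was not detected, and was at least 2.14-fold higher (adjusted p = 0.000279). ANGPTL4, a secreted inhibitor of lipoprotein lipase, read 13.06, 13.09 and 13.27 against 11.50, 11.74 and 11.15, a difference of 1.68 ± 0.16 (adjusted p = 0.00064). PFKFB4, which sets the level of a sugar phosphate that stimulates glycolysis, read 10.14, 10.03 and 9.76 against 8.20, 8.68 and 8.03, a difference of 1.67 ± 0.18 (adjusted p = 0.00111). The stress-response gene NDRG1 (0.94 ± 0.16, adjusted p = 0.0119) and the aldolase ALDOC (0.92 ± 0.17, adjusted p = 0.0163) followed, and PFKP (0.67), P4HA1 (0.62) and BNIP3 (0.51) were the other calls. NDRG1 missed without ErbB2 replicate 3 (0.0575), and ALDOC without ErbB2 replicates 1 (0.06) or 3 (0.0602) or Cas replicate 1 (0.0518). Members that did not pass included GAPDH at 0.23, LDHA at 0.13, ENO1 at 0.08 and PKM at -0.09, and the ubiquitous glucose transporter SLC2A1 was at -0.44 (adjusted p = 0.116). The lowest was ADM, which encodes the vasodilator adrenomedullin, at -0.67 (adjusted p = 0.0705). With 1 array left out 5, 5 and 3 members were called without ErbB2 replicates 1, 2 and 3, and 4, 6 and 5 without Cas replicates 1, 2 and 3.

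Of 22 measured genes of sterol and fatty acid synthesis, which SREBP factors control, 6 were called higher (2.47% over all items) and 0 lower. Of the 22 differences 20 were above 0 (median 0.37). The calls were the desaturases FADS1 (0.71 ± 0.15, adjusted p = 0.0308) and SCD (0.60 ± 0.12, adjusted p = 0.029), the elongase ELOVL6 (0.60 ± 0.12, adjusted p = 0.0232) and, in the sterol branch, MSMO1 (0.69 ± 0.13, adjusted p = 0.0162), CYP51A1 (0.64 ± 0.15, adjusted p = 0.0447) and HMGCS1 (0.54 ± 0.12, adjusted p = 0.0439). FASN was at -0.03 and INSIG1 at 0.52, and neither passed. Of the called genes MSMO1 and ELOVL6 each had another kept probe that was not called. All 6 lay near the threshold: 3, 1 and 0 sterol and fatty acid genes were called without ErbB2 replicates 1, 2 and 3, and 0, 1 and 2 without Cas replicates 1, 2 and 3.

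Adhesion to the matrix and its remodelling, the setting in which p130Cas works, differed in single members. ITGA5, the fibronectin receptor's alpha chain, read 11.55, 10.92 and 11.13 in ErbB2 and 9.06, 10.18 and 9.45 in Cas cells, a difference of 1.64 ± 0.27 (adjusted p = 0.00899). Of 10 measured integrin chains ITGA5 and ITGB5 (0.54 ± 0.12, adjusted p = 0.0443) were called higher and 0 lower, with a median of 0.40. The share called higher over all items was 2.47%. ITGB5 missed the threshold without each of the 6 arrays (0.0744 to 0.130). ITGB1, the common beta chain, was at 0.06. LAMB3, a laminin chain of the epithelial basement membrane, read 14.27, 13.92 and 14.19 against 12.95, 13.22 and 12.96, a difference of 1.08 ± 0.14 (adjusted p = 0.00289). COL4A1, a chain of type IV collagen, was not detected on the Cas arrays and was at least 1.51-fold higher (adjusted p = 0.0149), a call lost without ErbB2 replicate 1 (0.0577) or 3 (0.0688) or Cas replicate 3 (0.0518). These were 2 of 11 measured basement membrane genes. THBS1, the matrix protein thrombospondin, was 1.37 ± 0.24 higher (adjusted p = 0.0122) and TAGLN, an actin-binding protein of contractile cells, read 9.16, 8.71 and 8.69 against 10.41, 10.34 and 9.73, a difference of -1.31 ± 0.20 (adjusted p = 0.00692). They were the 2 calls among 14 mesenchymal markers and regulators, with VIM at 0.22, SNAI2 at 0.33 and TWIST1 at -0.37 not passing, and FN1, CDH2, SNAI1 and ZEB1 were not kept.

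Among proteases and their inhibitors, ADAM19, a membrane sheddase, was 1.20 ± 0.13 higher in ErbB2 cells (adjusted p = 0.00131). TIMP3, an inhibitor of matrix proteases that binds the matrix, was lower at -0.81 ± 0.17 (adjusted p = 0.0338), and MMP7 was lower at -0.74 ± 0.17 (adjusted p = 0.0436), with detection on 1 of the 3 ErbB2 arrays. TIMP3 missed without ErbB2 replicate 2 (0.0990) or 3 (0.101) or Cas replicate 1 (0.0737) or 2 (0.101), and MMP7 without any array but ErbB2 replicate 1 (up to 0.147). These were the 3 calls among 10 measured members. Of 12 plasminogen activators and serpins 3 were called higher, SERPINE2 given above, SERPINB1 (0.75 ± 0.12, adjusted p = 0.00813) and PLAU, which encodes urokinase (0.68 ± 0.13, adjusted p = 0.0189). SERPINB13 was lower at -0.86 ± 0.14 (adjusted p = 0.00963) and missed without ErbB2 replicate 2 (0.0523). PLAU missed without ErbB2 replicate 1 (0.0623) or 3 (0.0622) or Cas replicate 1 (0.0724) or 3 (0.0677).

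Among the genes higher in Cas cells were some that handle lipids, grouped here for description and not from a list. FABP4 (ILMN_1773006), a fatty acid carrier known from adipocytes and macrophages, read 9.06, 9.60 and 9.22 on the Cas arrays and 6.73, 6.83 and 6.62 on the ErbB2 arrays, where it was not detected. It was at least 2.51-fold lower in ErbB2 cells (adjusted p = 6.69e-05). CD36, which takes up fatty acids, read 8.17, 8.15 and 9.50 in Cas cells and was not detected in ErbB2 cells, where it was at least 1.56-fold lower (adjusted p = 0.0116). Cas replicate 3 was the high array, and the call was lost without ErbB2 replicate 3 (0.0590). BBOX1, the last enzyme of carnitine synthesis, read 10.49, 10.37 and 10.67 against 8.80, 9.03 and 8.60 in ErbB2 cells, a difference of -1.70 ± 0.14 (adjusted p = 0.000342). PRODH, which starts the breakdown of proline, was lower at -1.33 ± 0.15 (adjusted p = 0.00123). ALDH3A1, an aldehyde dehydrogenase known as a target of NRF2, read 11.08, 11.29 and 11.25 in Cas and 9.76, 9.50 and 9.63 in ErbB2 cells, a difference of -1.58 ± 0.12 (adjusted p = 0.000218). It was the 1 call downward among 13 measured NRF2 targets, with NQO1 at -0.25, GCLM at -0.20 and TXNRD1 at -0.32, and none of those passed. ME1, another target, was 0.60 ± 0.14 higher (adjusted p = 0.0471) and missed without any array but ErbB2 replicate 1 (up to 0.164).

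Squamous and secretory proteins of epithelium were split in direction. KRT13 (ILMN_1721218), a keratin of the upper layers of moist squamous epithelium, read 10.05, 9.58 and 8.98 in Cas cells and 7.51, 7.58 and 7.06 in ErbB2 cells, where it was not detected, and was at least 2.98-fold lower (adjusted p = 0.0017). CALML3, a calmodulin-like protein of epithelial cells, read 10.49, 10.50 and 10.47 against 8.87, 8.67 and 8.07 in ErbB2 cells, a difference of -1.95 ± 0.19 (adjusted p = 0.000646). Of 14 measured genes of cornification KRT13 and KRT10 (-0.74 ± 0.14, adjusted p = 0.0219) were called lower, and SBSN, the secreted epidermal protein suprabasin, was higher (at least 2.00-fold, undetected in Cas cells, adjusted p = 0.00666). KRT10 missed without ErbB2 replicate 3 (0.0675) or Cas replicate 1 (0.0783) or 2 (0.0604). SPRR3, a precursor of the cornified envelope, had a difference of -1.87 ± 0.47 that did not pass (adjusted p = 0.0597), with ErbB2 arrays at 8.87, 7.48 and 6.97 and Cas arrays at 10.04, 10.09 and 8.81, so the groups overlapped. The epidermal protease KLK7 was lower (-0.74 ± 0.15, adjusted p = 0.0265) and SPINK6, an inhibitor of kallikreins, higher (0.84 ± 0.16, adjusted p = 0.0206). KLK7 missed without any array but Cas replicate 3 (up to 0.105), and SPINK6 without ErbB2 replicate 1 (0.0694) or 2 (0.0926) or Cas replicate 2 (0.0644) or 3 (0.0705). KLK7 also missed with all 12 arrays and with 9 arrays in the fit (up to 0.435 over the alternatives). Of 13 S100 calcium-binding proteins S100A3 (1.26 ± 0.16, adjusted p = 0.00289) and S100A2 (0.73 ± 0.12, adjusted p = 0.0109) were called higher in ErbB2 cells and 0 lower.

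Further genes among the largest 15 toward Cas were of varied kinds. FBXO32, the ubiquitin ligase atrogin-1 and a FOXO target, read 12.05, 11.82 and 11.88 in Cas and 10.64, 10.38 and 10.54 in ErbB2 cells, a difference of -1.40 ± 0.12 (adjusted p = 0.000452). SELENOP, the secreted selenium carrier, was lower at -1.36 ± 0.12 (adjusted p = 0.0005). SELENBP1, a selenium-binding protein detected on 2 of the 3 ErbB2 arrays, was lower at -1.44 ± 0.19 (adjusted p = 0.00342). GPNMB, a transmembrane glycoprotein of lysosomes and melanosomes, was lower at -1.35 ± 0.14 (adjusted p = 0.000824). SLC47A2, an exporter of organic cations detected on 1 of the 3 ErbB2 arrays, was lower at -1.39 ± 0.17 (adjusted p = 0.0025). All but LCN2 and CD36 among the 15 kept their call with any 1 array left out.

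Interferon-stimulated genes, the set of antiviral genes that type I interferon turns on, were called in part. Of 18 measured members 5 were called lower in ErbB2 than in Cas cells and 1 higher (1.52% and 2.47% over all items), and 12 did not pass. The median was -0.38, and 14 of the 18 differences were below 0. ISG15, a ubiquitin-like modifier, read 9.30, 8.62 and 8.75 on the Cas arrays and 7.48, 7.63 and 7.32 on the ErbB2 arrays, on which it was not detected, and was at least 1.90-fold lower (adjusted p = 0.00289). IFIT1, which binds viral RNA caps, read 8.64, 8.88 and 8.79 in Cas and 7.91, 7.98 and 7.93 in ErbB2 cells, with detection on 1 of the 3 ErbB2 arrays, a difference of -0.83 ± 0.12 (adjusted p = 0.00434). IFI6, a mitochondrial protein, was lower at -0.93 ± 0.16 (adjusted p = 0.013), IFI44 at -0.72 ± 0.12 (adjusted p = 0.0106) and IFI27 at -0.88 ± 0.21 (adjusted p = 0.0463). IFI6 missed without ErbB2 replicate 2 (0.0648) and IFI27 without each of the 6 arrays (0.0510 to 0.155), and 3 members were called lower without ErbB2 replicate 2 against 4 without any other array. ISG20, an exonuclease, went the other way, at 10.94, 10.51 and 10.53 in ErbB2 and 9.86, 9.75 and 9.49 in Cas cells, 0.96 ± 0.16 higher (adjusted p = 0.00907). OAS3 and IFIT2 were at -0.46 each, IRF7 at -0.25, IFITM3 at 0.09 and IRF9 at 0.09, and none of them passed. MX1, MX2, OAS2, OASL, IFI44L, IFITM1 and PSMB9 were detected on 0 of the 6 arrays. IFIT3 was detected on at most 2 ErbB2 arrays and 1 Cas array and RSAD2 on at most 1 of each, and neither was kept. In the related class I antigen presentation HLA-B was the 1 call among 11 measured, at 11.39, 11.25 and 11.08 in ErbB2 and 12.11, 12.27 and 11.94 in Cas cells, a difference of -0.87 ± 0.14 (adjusted p = 0.00772), and the median of the 11 was -0.35. HLA-B is close in sequence to its neighbours, so its probe may read more than 1 gene, and HLA-C was at -0.43 and B2M at -0.35.

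**Figure D3:**
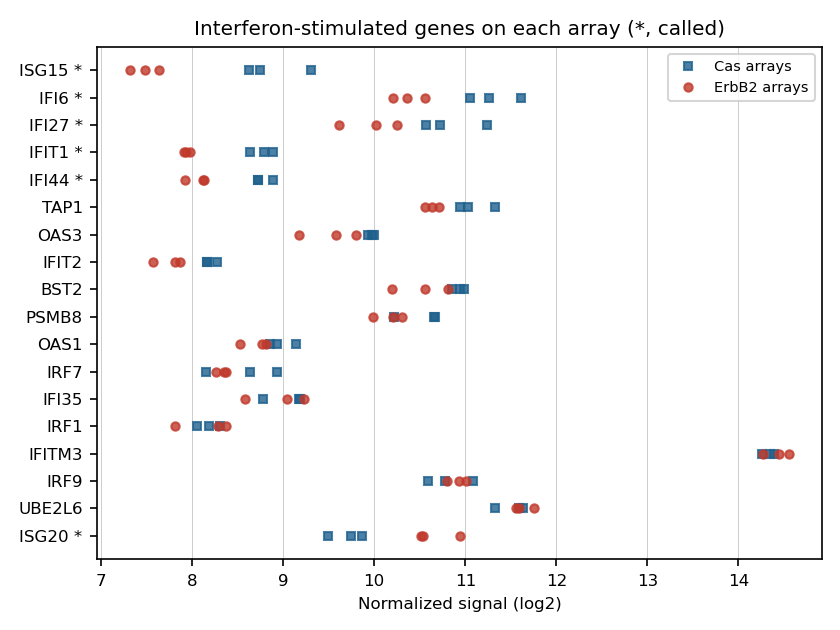
Normalized signal (log2, horizontal axis) of the 18 measured interferon-stimulated genes on each array, red circles for the 3 ErbB2 arrays and blue squares for the 3 Cas arrays, ordered from the lowest to the highest difference, with a star at called genes. ISG15 (7.48, 7.63 and 7.32 against 9.30, 8.62 and 8.75) was not detected on the ErbB2 arrays, so its first place is uncertain, and ISG20 is the 1 starred gene with the ErbB2 arrays higher.

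Promoters of ISG15 and IFIT1 are shown because both carry the interferon-stimulated response element, a sequence known from genes that interferon turns on. Each is the 250 bases before the start site from RefSeq (GRCh38.p14), ISG15 at chr1:1013247-1013496 and IFIT1 at chr10:89392373-89392622, both on the plus strand, with matches to the motif on either strand in capitals. The 2 matches of ISG15 overlap, and the 2 of IFIT1 read on the minus strand.
ISG15: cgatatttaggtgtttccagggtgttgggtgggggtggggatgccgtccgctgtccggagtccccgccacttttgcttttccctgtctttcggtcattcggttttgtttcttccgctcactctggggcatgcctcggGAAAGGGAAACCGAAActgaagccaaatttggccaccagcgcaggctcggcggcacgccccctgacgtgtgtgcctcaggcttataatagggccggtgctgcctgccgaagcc
IFIT1: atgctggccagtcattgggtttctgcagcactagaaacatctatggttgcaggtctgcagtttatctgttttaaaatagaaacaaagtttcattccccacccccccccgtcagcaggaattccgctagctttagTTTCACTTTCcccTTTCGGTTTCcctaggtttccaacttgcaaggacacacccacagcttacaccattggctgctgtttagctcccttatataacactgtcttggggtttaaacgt
The motif searched was GAAA, any 2 bases, then GAAA again, on both strands. In the same window of 300 bases it was found in 188 of 6742 tested genes (2.79%) and in 996 of 27305 genes in all (3.65%). Of the list's members it was found in 5 of 5 called lower (ISG15, IFIT1, IFI6, IFI27 and IFI44), in the 1 called higher (ISG20) and in 4 of 10 that did not pass (BST2, IFITM3, OAS3 and TAP1).

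Secreted signals and defence proteins differed in both directions. CCL20, a chemokine for dendritic cells and lymphocytes, read no higher than 9.10 on the Cas arrays (8.80, 8.96 and 9.10) and up to 10.36 on the ErbB2 arrays, with no overlap, a difference of 1.25 ± 0.14 (adjusted p = 0.00131). CCL5, a chemokine for T cells, read 9.36, 9.20 and 9.20 against 10.59, 10.31 and 10.19 in Cas cells, a difference of -1.11 ± 0.13 (adjusted p = 0.00205). Of 10 measured cytokines 3 were called higher, CCL20, CSF3 (at least 1.14-fold, undetected in Cas cells, adjusted p = 0.0113) and IL1A (0.71 ± 0.15, adjusted p = 0.0346), and 2 lower, CCL5 and CXCL8 (-0.72 ± 0.15, adjusted p = 0.0298). Over all items 2.47% were called higher and 1.52% lower. CSF3 missed without ErbB2 replicate 2 (0.0583), IL1A without ErbB2 replicates 2 (0.138) or 3 (0.112) or Cas replicates 1 (0.111) or 2 (0.101), and CXCL8 without any array but Cas replicate 3 (up to 0.101). CXCL8 also missed with all 12 arrays and with 9 arrays in the fit (up to 0.308 over the alternatives), and another kept probe of CXCL8 was not called. LCN2, the siderophore-binding defence protein lipocalin 2, read 10.47, 9.18 and 9.74 in ErbB2 and 11.73, 11.43 and 10.86 in Cas cells. Its difference of -1.54 ± 0.31 (adjusted p = 0.026) missed without ErbB2 replicate 2 (0.0822) or 3 (0.0953) or Cas replicate 1 (0.0748) or 2 (0.0720). Complement C3 was lower at -1.03 ± 0.14 (adjusted p = 0.00438). They were 2 of 9 measured defence proteins, and SLPI at -0.02, PI3 at 0.23 and SAA1 at -0.32 did not pass.

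Among receptors and ligands of cell death, TNFRSF6B, a decoy receptor for FAS ligand, was 1.35 ± 0.16 higher in ErbB2 cells (adjusted p = 0.00202) and TNFRSF12A, the TWEAK receptor, 0.78 ± 0.12 higher (adjusted p = 0.0067). TNFSF10, which encodes the death ligand TRAIL, read 8.71, 8.61 and 8.56 in ErbB2 and 9.69, 9.65 and 9.98 in Cas cells, a difference of -1.15 ± 0.13 (adjusted p = 0.00134). The call was lost with all 12 arrays and with 9 arrays in the fit (adjusted p up to 0.166). They were the 3 calls among 13 measured members. In the TGF-beta and BMP pathways ID3, an inhibitor of helix-loop-helix factors, was lower at -0.85 ± 0.11 (adjusted p = 0.00382) and the co-receptor TGFBR3 at -0.68 ± 0.14 (adjusted p = 0.025), 2 of 10 measured, and TGFBR3 missed without any array but ErbB2 replicate 3 (up to 0.102). NOTCH1 was lower at -0.77 ± 0.16 (adjusted p = 0.0305, up to 0.0967 without any array but ErbB2 replicate 1) and the ephrin EFNB2 higher at 1.01 ± 0.18 (adjusted p = 0.0163, lost without ErbB2 replicates 1 or 3 or Cas replicates 1 or 3, up to 0.0731), each the 1 call of its pathway among 10 and 8 measured members. Among 13 genes known as targets of YAP and SRF the calls were NT5E and TAGLN, in opposite directions, and CCN2 was at 0.61 (adjusted p = 0.103).

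The proliferation and lineage genes gave few calls. Of 31 measured genes of mitosis 0 passed in limma and 2 had an unadjusted p under 0.05, with a median of -0.02 and a range from -0.30 (CENPF) to 0.41 (AURKB). Of 23 genes of DNA replication 0 passed and 5 had an unadjusted p under 0.05, all lower, with a median of -0.18 and values from -0.40 (CDC45) to 0.15 (RFC2). Under median scaling that median was 0.03, or -0.14 relative to all items. An unadjusted p under 0.05 was met by 1897 of all 10759 items in limma. CCND2 (-0.55 ± 0.12, adjusted p = 0.0394) and SESN1 (-0.58 ± 0.14, adjusted p = 0.0499) were called lower among 14 cyclin D, CDK inhibitor and p53 target genes, with CDKN1A at -0.09, and with 1 array left out 1 was called without ErbB2 replicate 1 or 3 and 0 without any of the other arrays. Of 34 cytosolic ribosomal proteins RPS23 alone passed (-0.82 ± 0.14, adjusted p = 0.0124), 2.94% of the list beside 3.99% of all items. It missed without ErbB2 replicate 2 (0.0613) or 3 (0.0559). Of 10 basal markers, 11 luminal markers and claudins and 14 cadherins and desmosomal proteins 0 passed in limma, and 4, 3 and 5 had an unadjusted p under 0.05. With the authors' processed values, or with no background correction, 4 cadherin and desmosomal genes and 1 luminal gene were called lower, and 2 basal genes higher and 1 lower. With median scaling 3 basal, 1 luminal and 1 cadherin or desmosomal gene were called higher. Of all 10759 items median scaling called 799 higher. The authors' processed values gave 370 higher and 253 lower, and no background correction 349 and 248. KRT5 was at 0.03, KRT14 at -0.11, CDH1 at -0.21 and KRT8 at -0.56 (adjusted p = 0.0665). A p that missed the threshold does not show that these groups were alike. On simulated arrays with independent noise and 200 items changed, 30% of changes of 0.5 and 82% of changes of 1 (log2) were called. The shares in these data may differ. Among markers of other cells CD14 was lower in ErbB2 cells (-0.75 ± 0.17, adjusted p = 0.0398, up to 0.111 without any array but Cas replicate 2), while CD68, the other measured leukocyte marker, was at 0.56 ± 0.14 (adjusted p = 0.0574) and did not pass. The fibroblast marker DCN, at -0.59 ± 0.18 (adjusted p = 0.107), did not pass.

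**Figure D4:**
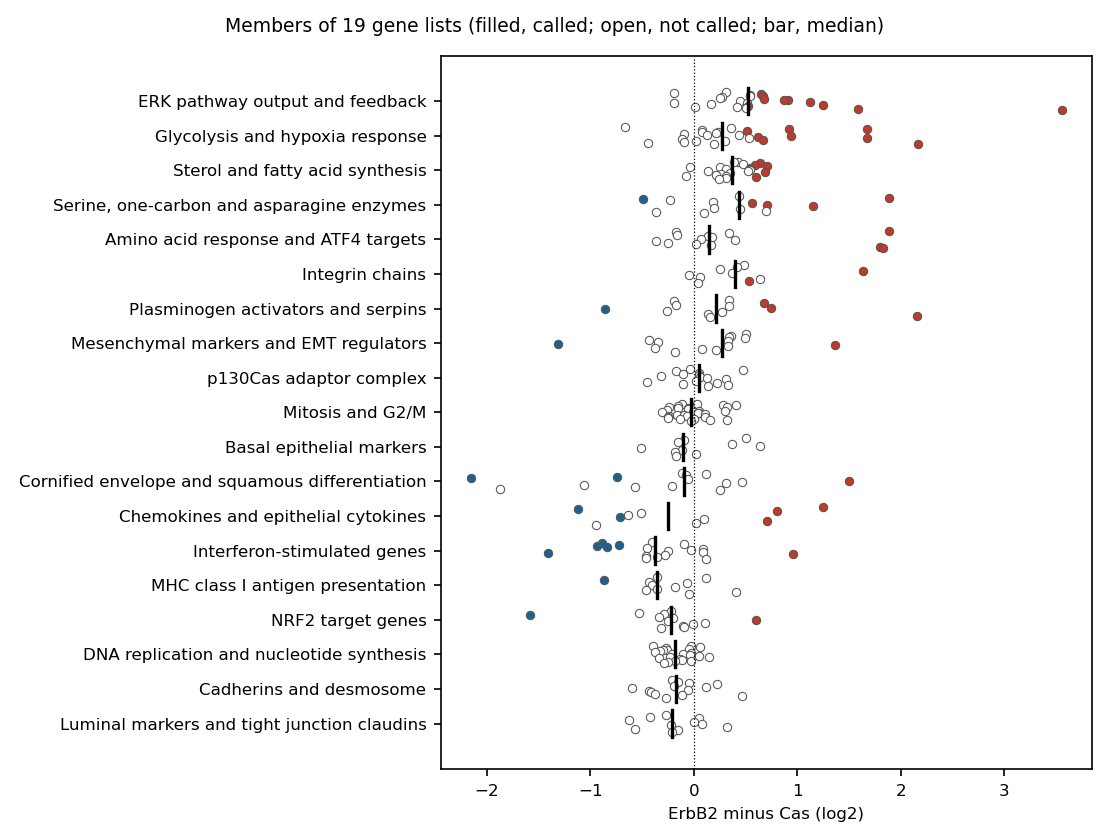
Difference between ErbB2 and Cas cells (ErbB2 minus Cas, log2) for the measured members of 19 gene lists, 1 point per gene, filled red or blue where called higher or lower and open where not, with a bar at each list's median. The ERK outputs sit to the right (median 0.53, 11 of 23 called) and the interferon-stimulated genes to the left (median -0.38, 5 of 18 called lower), while the 31 mitosis genes lie around -0.02 with 0 called. The lists were written with earlier results of these data known, so the plot is a description.

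The levels of the same genes in the other 6 arrays were read on a scale on which all 12 arrays were normalized together. The control arrays differ in background (median raw signal 171 to 202, against 477 to 623 on the other 9) and in probes detected (19076 to 19416, against 12864 to 15984). Their array names alone carry a mark, II Hyb or III Hyb. A difference from control cannot be told apart from a difference between such arrays. Levels there are given as a description with no test. TMEM158 had a mean of 10.79 in ErbB2, 12.05 in Cas/ErbB2, 6.94 in Cas and 7.90 in control cells. SCG5 had 11.43, 12.68, 8.96 and 8.75 in the same order. SERPINE2, at 12.70, 13.84, 10.58 and 10.13, and NT5E, at 12.50, 13.61, 10.14 and 9.92, followed the same order of levels, with Cas close to control and Cas/ErbB2 above ErbB2. The genes higher with Cas fell into different orders. FABP4 had means of 9.34 in Cas, 8.07 in control, 6.50 in ErbB2 and 6.48 in Cas/ErbB2 cells, and KRT13 9.59, 7.63, 7.14 and 6.78, so both stood highest in Cas. LCN2, at 11.37 in Cas and 8.64 in control cells, was likewise highest in Cas. BBOX1, by contrast, had 10.55 in Cas and 11.21 in control cells, against 8.87 in ErbB2 and 7.45 in Cas/ErbB2 cells. ISG15 was also lower in both groups with ErbB2, at 7.24 and 6.78, than in Cas (8.94) or control cells (9.37). ALDH3A1 had the order of BBOX1, at 12.10 in control, 11.24 in Cas, 9.68 in ErbB2 and 8.85 in Cas/ErbB2 cells. CALML3 was at like levels in Cas (10.53) and control cells (10.37), and at 8.55 in ErbB2 and 6.78 in Cas/ErbB2 cells. Some of these means were at background. TMEM158 was detected on 0 of the 3 Cas arrays. FABP4, KRT13 and ISG15 were detected on 0 of the 3 ErbB2 and 0 of the 3 Cas/ErbB2 arrays. CALML3 was detected on 0 and BBOX1 on 1 of the 3 Cas/ErbB2 arrays, and KRT13 on 2 of the 3 control arrays. Differences among means at background are not read as an order of levels.

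**Figure D5:**
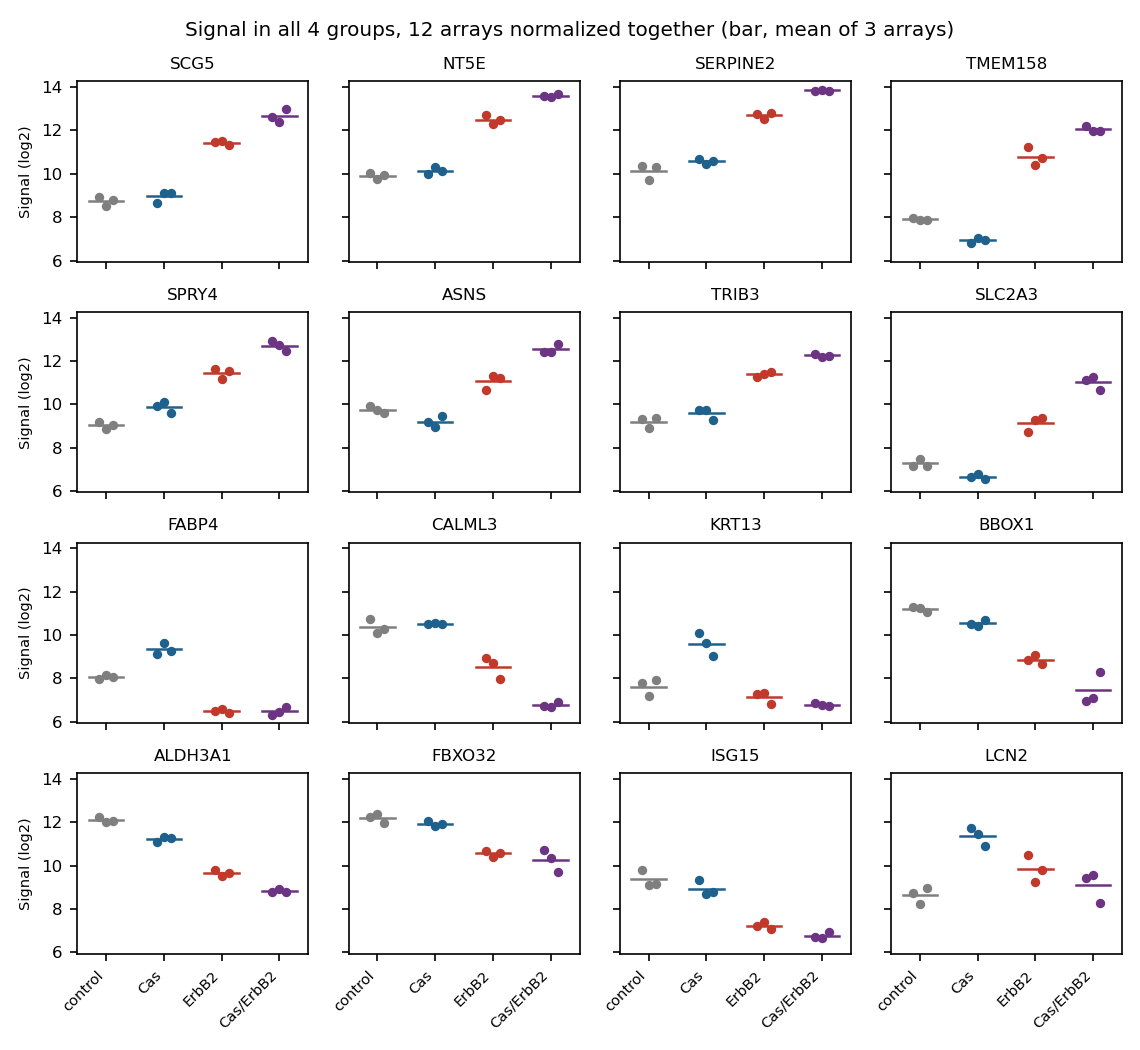
Signal (log2) of 16 genes on all 12 arrays normalized together, 3 points per group for control (grey), Cas (blue), ErbB2 (red) and Cas/ErbB2 (purple), with a bar at each mean. SCG5, NT5E and SERPINE2 are near the control level in Cas cells and highest in Cas/ErbB2 cells, while FABP4, KRT13 and LCN2 are highest in Cas cells (9.34, 9.59 and 11.37). FABP4 and KRT13 were not detected on the ErbB2 or Cas/ErbB2 arrays, where their values are background. The control arrays differ from the others in background and in the Hyb mark of their names.

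For most of the called genes the cells with both changes were nearer to ErbB2 than to Cas. Of the 266 items called higher in ErbB2 229 had a Cas/ErbB2 mean nearer to the ErbB2 mean, and of the 163 called lower 151 had one, 88.6% of the calls against 61.6% of all items. Cas/ErbB2 replicate 3 stood apart from its group in signal, and without it the counts were 215 and 146, against 57.8% of all items.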

How the data were processed

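Bead intensities and detection p-values of each array were deposited by the authors in a non-normalized table, per the file headers, with no statement there of scanner settings. Per the labels' protocols the RNA was extracted with Trizol and labelled with biotin. The authors also deposited a table of processed intensities, used here as an alternative, whose normalization no source used here gives. Groups came from the sample titles. Intensities were corrected for background from the detection p-values, quantile-normalized over the 6 arrays and put on the log2 scale with limma 3.58.1 (neqc, offset 16) in R 4.3.3. Group means were compared with lmFit and eBayes, adjusted by Benjamini-Hochberg over all 10759 items. The numbers of arrays limit the precision. Where a whole group of arrays did not detect a gene, its fold is a bound, written as "at least N-fold": the bright group's mean against the dim group's mean of, per array, the higher of the lowest detected signal and the gene's own.

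Named genes were the 15 largest called differences in each direction (groups not overlapping, no provisional symbols, no second probe called the other way), up to 5 called members per list by size, up to 2 members of a list without calls, BCAR1, ERBB2, NGFR and the cell markers. Other list members, and PCK2, were named after their values were seen. The members and gene lists were chosen with earlier results of these data known. Symbols came from the platform annotation (30111 probes with 1 symbol, 8 with several and 17105 with none, the last tested as unnamed probes), 30072 of them brought to current symbols. The genome build of the probes is not given, so coordinates are printed for RefSeq promoters only. The test was run on simulated arrays with independent normal noise at each item's own SD and 200 of 10759 items changed. There it called 30%, 82%, 98% and 100% of changes of 0.5, 1, 2 and 3 on the log2 scale, and 6 of its 161 calls were false. These shares hold for that setting and do not give the power or error rate in these data. Plots used matplotlib 3.10.9. Alternatives covered the background, the scaling, the filter, the arrays in the fit, the replicate block, the variance model and each array left out.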

Additional observations from a re-analysis of the deposited data

How the results depend on the processing

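The total of 429 calls was 897 with median scaling, 170 with no detection filter, 223 with 9 arrays in the fit, 652 with a trended and robust variance, 113 at a size of at least 1, and 206 to 296 with 1 array left out. The 266 higher calls were 799, 116, 150 and 86 under the first 3 and the size limit, and 143 to 183 with 1 array left out. The 163 lower calls were 98, 54, 73, 266 and 27 under those 5 settings in order, 248 with no background correction, 253 with the authors' processed values, and 62 to 125 with 1 array left out. The difference of COL1A1, which did not pass, changed sign under median scaling (0.14), with array weights (0.038), and with 1 array left out ran from -0.12 to 0.17. That of BCAR1 did so under median scaling (0.15) and with 1 array left out ran from -0.27 to 0.22. The causes of these changes were not tested. Of 122 called genes followed through the alternatives 63 kept their call in all, 17 lost it under 1 to 3 and 42 under more. Same-numbered arrays deviated from their group means with correlations of 0.17, -0.18 and 0.19, so the numbers were not taken as pairs, and with the replicate number as a block there were 418 calls, 268 higher and 150 lower, 361 of them shared with the unblocked fit. Genes near background are limited by signal: 51 of the higher calls were undetected on all Cas arrays and 17 of the lower calls on all ErbB2 arrays.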

Other observations

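Some called genes outside the lists were picked after their values were seen, and are given as values only. Higher in ErbB2 cells were TRIB1, a pseudokinase related to TRIB3, at 1.52 (limma, adjusted p = 0.000396), XDH, the xanthine dehydrogenase of purine breakdown, at 1.48 (0.000555), the WNT inhibitor DKK1 at 1.47 (0.00247), the gap junction protein GJB2 at 1.20 (0.00289) and the angiopoietin receptor TEK at 1.12 (0.00197). Lower were PDK4, which restrains pyruvate dehydrogenase, at -1.17 (0.00134), the interferon-induced GTPase GBP2 at -1.04 (0.00531), the growth factor receptor FGFR3 at -0.98 (0.00202), the carnitine transporter SLC22A5 at -0.91 (0.00566) and the kinase SGK1 at -0.84 (0.00694). The calls of GBP2 and SLC22A5 were lost with all 12 arrays and with 9 arrays in the fit (limma, adjusted p up to 0.0557 and 0.170).

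Of the 429 calls 66 were probes with no gene name. The probe ILMN_1725139 was 2.59 higher in ErbB2 cells (adjusted p = 0.0382), with an SD of 1.48 among the Cas arrays, and ILMN_1681260 was 2.04 higher.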
